A study of Mus musculus with 12 samples.

Results

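The genes described here encode the first steps of PTH signaling, from the receptor to PKA, in murine bone marrow stromal W-20 cells. They are *Pth1r*, the G protein α subunit genes *Gnas*, *Gnaq* and *Gna11*, the adenylyl cyclase genes *Adcy6*, *Adcy7* and *Adcy9*, and the PKA subunit genes *Prkaca*, *Prkacb* and *Prkar1a*. They were picked by symbol for their place in the pathway, with earlier results of these data known, and are 10 of the 56980 genes in the count matrix. All 10 passed the filter of a total of at least 10 counts.

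Bulk RNA-Seq comprised 12 libraries in 4 groups of 3. WT libraries are titled W20 and were taken to come from W-20 cells without added YAP. Y428F libraries came from a stable W-20 line carrying YAP with the Y428F change, a tyrosine replaced by phenylalanine. Cells of each line received either 50 nM PTH or the same volume of vehicle (Veh, PBS) for 2 hours, and both lines were grown in DMEM with serum. Per the study's methods, mutant YAP was introduced on a Flag-tagged plasmid named for the CMV promoter, and the number of clones is not given in the sources used here. The genotype entry of the Y428F libraries reads WT, so their group rests on their titles, and no title names cells given unmutated YAP. The study's text describes the sequenced mutant cells as a double mutant, in which a serine of YAP that the Hippo kinase LATS1 phosphorylates is also replaced by alanine, whereas the labels give only Y428F. Both amino acid changes, the added YAP itself and the history of the selected line therefore cannot be told apart in a comparison of the lines. No label says that the 3 libraries of a group came from separate cultures, so p-values measure the spread between these libraries, which may be technical.

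Library totals ranged from 17127897 to 19057319 counts. Within each group every pair of libraries was further apart than sampling alone would give (chi-square divided by degrees of freedom, 2.94 to 15.2). Of 11 stromal markers, 10 were detected, led by *Col1a2* with a mean of 9996.5 CPM (counts scaled to library size with edgeR's TMM factors), and the exception was *Thy1*, which had 0 counts in all 12 libraries. Markers of differentiated bone and fat cells were low, with *Sost*, *Adipoq* and *Cfd* at 0 throughout, although *Runx2* and *Lpl* reached means of 82.1 and 361 CPM. In bulk RNA, fewer cells of a type and less RNA per cell cannot be told apart.

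PTH binds PTH1R, a class B G protein–coupled receptor of osteoblasts, osteocytes, stromal cells and kidney tubule. The receptor activates Gαs, encoded by *Gnas*, which stimulates adenylyl cyclases to make cAMP, and cAMP releases the catalytic subunits of PKA from their regulatory subunits. It also activates Gαq and Gα11, encoded by *Gnaq* and *Gna11*, which stimulate phospholipase C β to release calcium and activate PKC.

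Exposure to PTH was followed by a lower level of 1 of the 10 genes, *Adcy6*, in each line. It fell 1.17-fold in WT cells, a call near the limit of 0.05 (edgeR adjusted p = 0.0435), and 1.20-fold in Y428F cells. In contrast, 7 of the 10 genes differed between the lines with Veh (2 higher and 5 lower in Y428F cells), and 8 differed with PTH (3 higher and 5 lower). *Adcy7* was 2.49-fold higher in Y428F cells than in WT cells with Veh, whereas *Adcy6*, *Adcy9*, *Gnas*, *Prkaca* and *Prkacb* were lower. These counts were read beside those of all genes tested. With PTH, the share of genes past an adjusted p limit of 0.05 was 11.8% for WT cells and 12.4% for Y428F cells. Between the lines, 45.1% passed with Veh and 45.7% with PTH. These shares include many genes with few counts. With edgeR's stricter filter on low counts, 7846 of 13401 genes passed with Veh and 7930 with PTH. For PTH against Veh, the members' share was thus near that of genes in general in each line.

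The median log2 fold change of the 10 genes with PTH was -0.0014 in WT cells, beside -0.015 for all genes tested, and -0.068 in Y428F cells, beside -0.0067. Between the lines, their median log2 fold difference was -0.12 with Veh, beside 0.012 for all genes, and -0.18 with PTH, beside 0.019. The 2 line comparisons share no library, but each shares its WT or Y428F libraries with the comparisons of PTH and Veh.

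**Figure D1:**
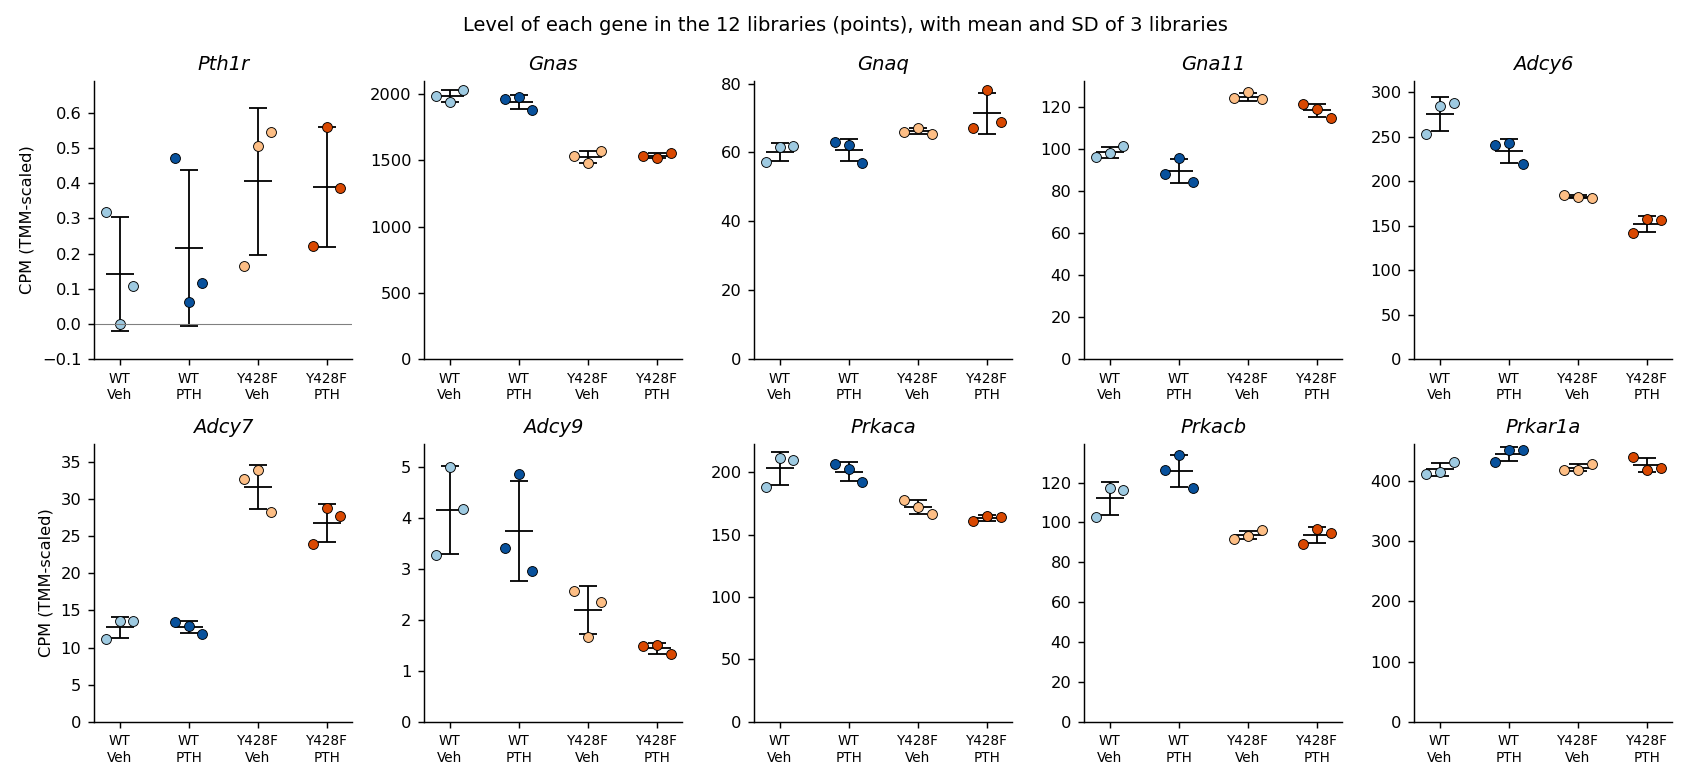
Level of each of the 10 genes in CPM (y axes, from 0 except for *Pth1r*) in the 4 groups, with each library a point and the bars showing mean and SD over 3 libraries. *Adcy7* lay between 11.1 and 13.6 CPM in the 6 WT libraries and between 23.9 and 33.9 CPM in the 6 Y428F libraries, while *Pth1r* stayed below 0.6 CPM throughout.

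*Pth1r* (ENSMUSG00000032492.15; chromosome 9, 110550767 to 110576259, minus strand, GRCm39) was close to the limit of detection. With Veh, the WT libraries held 6, 0 and 2 counts, and with PTH they held 8, 1 and 2. Y428F libraries held 3, 10 and 10 counts with Veh and 4, 10 and 7 with PTH. The groups overlapped in both treatments, and 1 WT library with Veh had no count at all. Summed over the 3 libraries of a group, the level was 0.145 CPM in WT cells with Veh (95% Poisson interval 0.0627 to 0.286), 0.218 CPM in WT cells with PTH (0.109 to 0.391), 0.408 CPM in Y428F cells with Veh (0.259 to 0.612) and 0.389 CPM in Y428F cells with PTH (0.241 to 0.594). These intervals cover counting error only.

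A response of *Pth1r* to PTH was not detectable at this depth, since its log2 fold change was 0.58 for WT cells (95% CI -1.63 to 2.79, edgeR adjusted p = 0.795) and -0.062 for Y428F cells (-1.61 to 1.49, adjusted p = 0.985). The difference between the lines with Veh was 1.45 (-0.31 to 3.22, adjusted p = 0.176). It passed the limit only when the first WT Veh library, the one with 6 counts, was left out (2.74, adjusted p = 0.0491). *Myl3* overlaps *Pth1r* on the other strand. The protocol does not say whether the libraries kept strand, so reads of such overlapping pairs cannot be told apart. Of the other receptor genes, *Pth2r* had 8 counts in all over the 12 libraries, and the ligand genes *Pth* and *Pthlh* had none.

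Of the 3 Gα genes in this set, *Gnas* had the highest level per kb of transcript. *Gnas* (ENSMUSG00000027523.21; chromosome 2, 174126022 to 174188537, plus strand) had 1990, 1944 and 2033 CPM in WT cells with Veh and 1965, 1981 and 1884 CPM with PTH. In Y428F cells it had 1532, 1478 and 1572 CPM with Veh and 1537, 1519 and 1554 CPM with PTH. Every Y428F library lay below every WT library, and the treatments overlapped within each line. The locus is imprinted and also gives rise to longer protein-coding and antisense transcripts, which a single gene count does not separate.

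*Gnas* was 1.30-fold lower in Y428F cells with Veh (log2 -0.38, SE 0.051, edgeR adjusted p = 3.07e-06) and 1.26-fold lower with PTH (log2 -0.34, SE 0.051, adjusted p = 1.32e-05). Its responses to PTH were -0.027 in WT cells (95% CI -0.17 to 0.11) and 0.0087 in Y428F cells (-0.098 to 0.12). The intervals of both responses thus reached no further than 0.17 from 0 on the log2 scale.

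*Gna11* (ENSMUSG00000034781.6; chromosome 10, 81364558 to 81381060, minus strand) followed the opposite direction. Its levels were 96.2, 98.1 and 101 CPM in WT cells with Veh and 88.3, 95.7 and 84.3 CPM with PTH. In Y428F cells they were 124, 127 and 124 CPM with Veh and 121, 119 and 115 CPM with PTH. The Y428F libraries were all above the WT libraries, and in each line the PTH libraries were all below the Veh libraries. The difference between the lines passed the test with Veh (1.27-fold, log2 0.34, SE 0.056, adjusted p = 3.07e-05) and with PTH (1.32-fold, adjusted p = 4.33e-06). With the median difference of the genes on its chromosome taken out, both calls were lost (log2 0.087, adjusted p = 0.228 with Veh, and 0.14, adjusted p = 0.0504 with PTH). The responses to PTH did not pass (log2 -0.13 in WT cells, adjusted p = 0.211, and -0.078 in Y428F cells, adjusted p = 0.431).

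*Gnaq* (ENSMUSG00000024639.6; chromosome 19, 16110027 to 16365882, plus strand) had 57.2, 61.7 and 61.8 CPM in WT cells with Veh and 63.0, 62.1 and 57.1 CPM with PTH. In Y428F cells its levels were 66.0, 67.2 and 65.5 CPM with Veh and 67.1, 78.2 and 68.9 CPM with PTH. All Y428F libraries lay above the WT libraries of the same treatment, with the second Y428F PTH library the highest. With PTH the lines differed 1.18-fold (log2 0.23, SE 0.066, adjusted p = 0.00595), a call lost without that library (0.15, adjusted p = 0.063). The call was also lost with the median difference of its chromosome taken out (0.10, adjusted p = 0.222). With Veh the difference was 0.14 (95% CI 0.0013 to 0.27, adjusted p = 0.0947). The ratio of *Gna11* to *Gnaq* per length of transcript was 3.26 ± 0.0917 (SD, n = 3) in WT cells with Veh, 2.93 ± 0.139 with PTH, 3.76 ± 0.0148 in Y428F cells with Veh and 3.32 ± 0.286 with PTH.

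**Figure D2:**
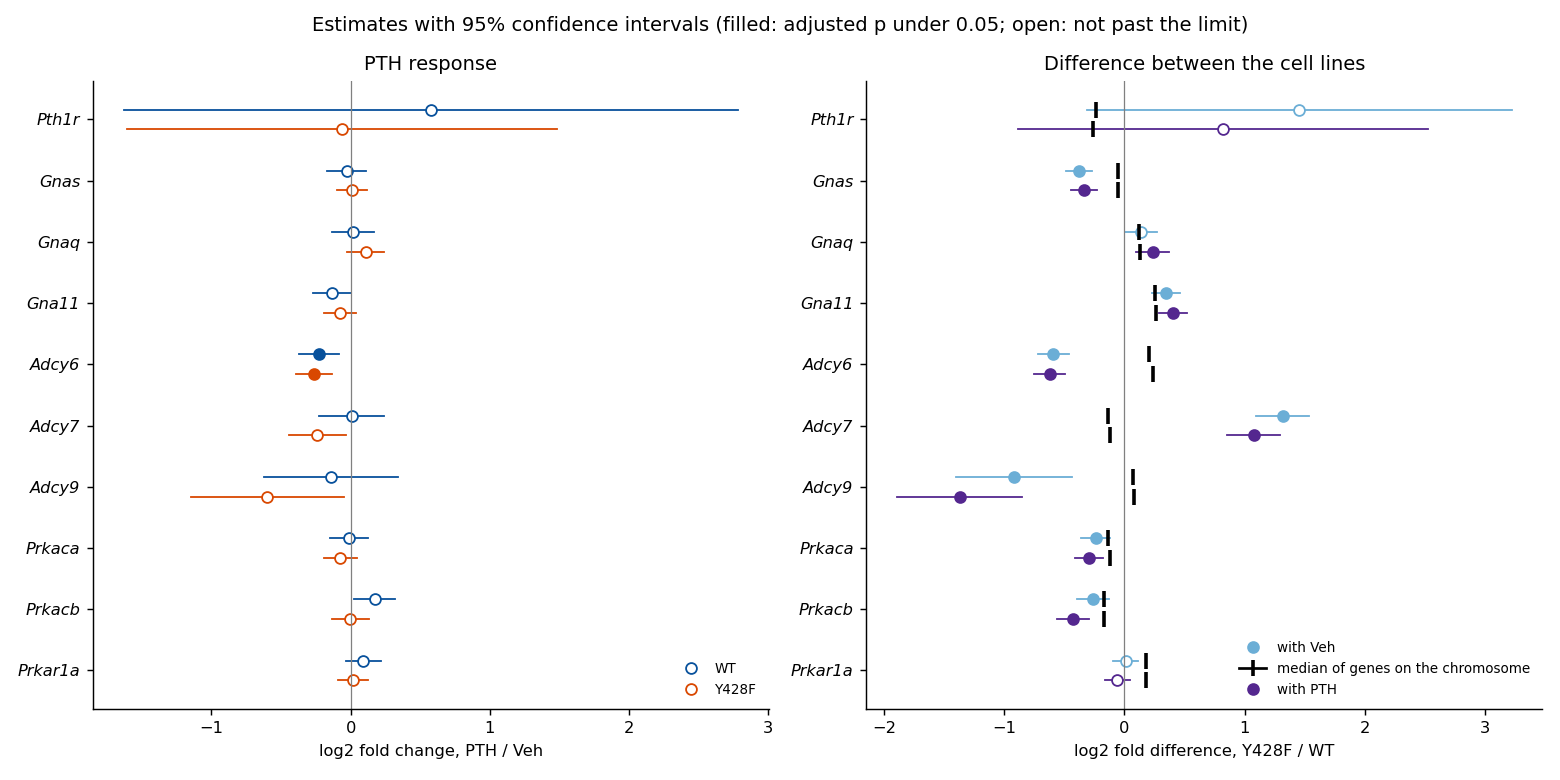
Log2 fold changes of the 10 genes with 95% confidence intervals, for PTH against Veh in each line (left) and for Y428F against WT cells in each treatment (right), where black ticks mark the median of the genes on the same chromosome. *Adcy6* carries the only filled points of the PTH panel, and the 3 cyclase genes lie farthest from their chromosomes' medians among the genes called between the lines.

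The cyclases showed the largest called differences of the set. *Adcy6* (ENSMUSG00000022994.10; chromosome 15, 98487854 to 98507957, minus strand) encodes a membrane cyclase that is stimulated by Gαs and inhibited by Gαi and calcium. Its levels were 253, 285 and 288 CPM in WT cells with Veh and 240.4, 243 and 219 CPM with PTH. In Y428F cells they were 184, 182.5 and 181 CPM with Veh and 142, 158 and 157 CPM with PTH. The 4 groups did not overlap, in the order WT Veh, WT PTH, Y428F Veh and Y428F PTH from high to low.

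With PTH, *Adcy6* fell by 0.23 on the log2 scale in WT cells (SE 0.067, 95% CI -0.37 to -0.082, edgeR adjusted p = 0.0435). In Y428F cells it fell by 0.26 (SE 0.063, -0.39 to -0.13, adjusted p = 0.00773). The responses of the lines differed by -0.030 (-0.21 to 0.15, adjusted p = 0.984). The WT result was near the limit: it was lost without the second or the third Veh library or any of the 3 PTH libraries (adjusted p up to 0.176) and kept only without the first Veh library (adjusted p = 0.00766). The Y428F result kept its call without each library in turn (0.00902 to 0.0360).

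Between the lines, *Adcy6* was 1.51-fold lower in Y428F cells with Veh (log2 -0.59, SE 0.062, adjusted p = 9.64e-08) and 1.54-fold lower with PTH (log2 -0.62, SE 0.063, adjusted p = 5.44e-08). *Adcy7* (ENSMUSG00000031659.14; chromosome 8, 88998882 to 89059394, plus strand) encodes a cyclase that Gβγ can stimulate further together with Gαs. Its levels were 11.1, 13.5 and 13.6 CPM in WT cells with Veh and 13.5, 12.9 and 11.8 CPM with PTH, and in Y428F cells 32.8, 33.9 and 28.2 CPM with Veh and 23.9, 28.8 and 27.8 CPM with PTH. The lowest Y428F library was thus above the highest WT library.

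*Adcy7* was 2.49-fold higher in Y428F cells with Veh (log2 1.31, SE 0.10, adjusted p = 1.6e-09) and 2.10-fold higher with PTH (log2 1.07, SE 0.11, adjusted p = 4.03e-08). Its response to PTH was 0.0085 in WT cells (95% CI -0.23 to 0.24, adjusted p = 0.977) and -0.24 in Y428F cells (-0.44 to -0.036, adjusted p = 0.126). The difference of these responses, -0.24 (-0.55 to 0.070, adjusted p = 0.824), did not pass the test.

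*Adcy9* (ENSMUSG00000005580.12; chromosome 16, 4102752 to 4238428, minus strand), which encodes a cyclase that forskolin stimulates weakly if at all, was the lowest of the 3. It had 3.28, 5.00 and 4.19 CPM in WT cells with Veh and 3.42, 4.86 and 2.97 CPM with PTH, from 51 to 88 counts a library. In Y428F cells its levels were 2.57, 1.67 and 2.35 CPM with Veh and 1.498, 1.52 and 1.32 CPM with PTH, from 24 to 47 counts. All Y428F libraries lay below all WT libraries.

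The difference between the lines in *Adcy9* was 1.89-fold with Veh (log2 -0.92, SE 0.23, adjusted p = 0.00246) and 2.58-fold with PTH (log2 -1.37, SE 0.25, adjusted p = 0.000115). Its response to PTH was -0.14 in WT cells (95% CI -0.62 to 0.34, adjusted p = 0.764) and -0.60 in Y428F cells (-1.14 to -0.051, adjusted p = 0.159). In Y428F cells the PTH libraries were all below the Veh libraries.

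Levels of different genes were compared per kb of the canonical transcript. By this measure *Adcy6* made up nearly all cyclase mRNA in WT cells, 95.4% ± 0.110 (SD, n = 3) of the summed 10 cyclase genes with Veh and 95.1% ± 0.197 with PTH, and 88.4% ± 0.867 and 88.2% ± 0.490 in Y428F cells. *Adcy7* supplied 2.94% ± 0.128 and 3.45% ± 0.104 in WT cells, and 10.2% ± 0.807 and 10.4% ± 0.369 in Y428F cells. The ratio of *Adcy6* to *Adcy7* was 32.5 ± 1.48 with Veh and 27.6 ± 0.788 with PTH in WT cells, and 8.70 ± 0.797 and 8.52 ± 0.350 in Y428F cells. It did not overlap between the lines.

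The summed cyclase level was 48.3 ± 3.37 CPM per kb in WT cells with Veh, 41.2 ± 2.40 with PTH, 34.6 ± 0.653 in Y428F cells with Veh and 28.8 ± 1.80 with PTH. The higher *Adcy7* of Y428F cells therefore stood beside a lower cyclase total. *Adcy6*, *Adcy7* and *Adcy9* together held 99.0% to 99.8% of the total in every library. Of the 7 other cyclase genes, *Adcy3* was the most abundant with group means of 0.477 to 1.15 CPM. *Adcy8* had 0 counts in each WT library and 2 to 5 in each Y428F library, and *Adcy2* had none in any.

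The sequence upstream of *Adcy7*, the gene of the set with the largest called difference between the lines with Veh, is shown for its base composition. In the 250 bases before the start of the canonical transcript (GENCODE vM39), GC content was 49.2%, beside a median of 53.2% over 21247 protein-coding genes. The window is chr8:89015318-89015567, plus strand, which lies inside the gene, after the starts of other transcripts.
Adcy7: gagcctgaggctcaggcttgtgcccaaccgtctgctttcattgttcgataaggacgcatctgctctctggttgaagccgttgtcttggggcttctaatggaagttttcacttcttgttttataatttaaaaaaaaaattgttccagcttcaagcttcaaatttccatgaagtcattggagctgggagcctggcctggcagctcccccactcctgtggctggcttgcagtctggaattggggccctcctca

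cAMP response elements were searched as TGACGTCA, the full palindrome bound by CREB, and as its shorter form TGACG, which the palindrome contains, on both strands of such windows. The palindrome occurred in 1.71% of the 21247 windows and in none of the 3 windows shown. TGACG occurred in 18% of windows and in those of *Prkaca* and *Prkacb*, the catalytic subunit genes of PKA. Both windows are shown with the match in capitals, where it reads CGTCA because it lies on the other strand, 88 bases before the start in *Prkaca* (chr8:84699325-84699574, plus strand) and 10 bases before it in *Prkacb* (chr3:146518794-146519043, minus strand). A match is a description of the letters and not a binding site.
Prkaca: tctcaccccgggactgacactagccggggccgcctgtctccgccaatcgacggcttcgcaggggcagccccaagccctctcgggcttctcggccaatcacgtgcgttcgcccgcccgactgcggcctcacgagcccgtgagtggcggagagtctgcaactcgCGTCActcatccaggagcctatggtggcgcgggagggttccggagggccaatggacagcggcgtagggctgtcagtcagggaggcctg
Prkacb: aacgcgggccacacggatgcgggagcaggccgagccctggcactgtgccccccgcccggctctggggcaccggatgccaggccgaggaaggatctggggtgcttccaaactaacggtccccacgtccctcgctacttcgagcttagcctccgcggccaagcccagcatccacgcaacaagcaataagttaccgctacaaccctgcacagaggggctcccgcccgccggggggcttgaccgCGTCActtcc

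*Prkaca* and *Prkacb* were both lower in Y428F cells. With the median differences of their chromosomes taken out, neither was called with Veh (log2 -0.11, adjusted p = 0.123, and -0.089, adjusted p = 0.285). Both kept their calls with PTH. *Prkaca* (ENSMUSG00000005469.11; chromosome 8, 84699575 to 84723091, plus strand) had 188, 212 and 209.9 CPM in WT cells with Veh and 206, 203 and 192 CPM with PTH. In Y428F cells it had 178, 172 and 166 CPM with Veh and 161, 165 and 164 CPM with PTH. The lines did not overlap in either treatment. The difference was 1.18-fold with Veh (log2 -0.24, SE 0.056, adjusted p = 0.00138) and 1.23-fold with PTH (log2 -0.30, SE 0.056, adjusted p = 0.00018), and the responses to PTH were -0.011 in WT cells (95% CI -0.15 to 0.12) and -0.075 in Y428F cells (-0.19 to 0.043).

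*Prkacb* (ENSMUSG00000005034.16; chromosome 3, 146435311 to 146518793, minus strand) had 103, 117.4 and 116 CPM in WT cells with Veh and 126, 134 and 117.4 CPM with PTH. Y428F cells had 91.8, 93.2 and 96.2 CPM with Veh and 89.1, 96.8 and 94.97 CPM with PTH. The WT PTH libraries were above the WT Veh libraries by the narrowest of margins, and the Y428F groups overlapped. The log2 response was 0.17 in WT cells (SE 0.069, adjusted p = 0.129) and -0.0021 in Y428F cells (adjusted p = 0.992), and the difference of the responses was -0.17 (95% CI -0.36 to 0.019, adjusted p = 0.773).

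Between the lines, *Prkacb* was 1.20-fold lower with Veh (log2 -0.26, SE 0.064, adjusted p = 0.00216) and 1.34-fold lower with PTH (log2 -0.43, SE 0.064, adjusted p = 1.11e-05). *Prkar1a* (ENSMUSG00000020612.17; chromosome 11, 109513434 to 109560633, plus strand) encodes the type I α regulatory subunit, which binds and inhibits the catalytic subunits until cAMP is present. Its levels were 412, 414 and 431 CPM in WT cells with Veh and 431, 451 and 452 CPM with PTH, and 419, 418 and 428.4 CPM with Veh and 440.5, 418 and 422 CPM with PTH in Y428F cells. It had the narrowest range of the set for its level, with all 12 libraries between 412 and 452 CPM.

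No comparison called *Prkar1a*. Its log2 response to PTH was 0.092 in WT cells (95% CI -0.036 to 0.22, adjusted p = 0.382) and 0.017 in Y428F cells (-0.088 to 0.12, adjusted p = 0.893). The lines differed by 0.0091 with Veh (-0.096 to 0.11, adjusted p = 0.905) and by -0.058 with PTH (-0.16 to 0.047, adjusted p = 0.371). The ratio of the summed regulatory subunits to the summed catalytic subunits, in CPM per kb, was 1.32 ± 0.0745 in WT cells with Veh, 1.38 ± 0.0573 with PTH, 1.57 ± 0.0453 in Y428F cells with Veh and 1.67 ± 0.0644 with PTH (SD, n = 3). It was higher in all 6 Y428F libraries than in all 6 WT libraries, and *Prkaca* supplied 75.2% to 77.7% of the catalytic sum in the 4 group means. Chromosome medians were not taken out of this ratio. With Veh, the median log2 line difference was 0.18 on the chromosome of *Prkar1a*, -0.13 on that of *Prkaca* and -0.17 on that of *Prkacb*. Their part in the ratio was not tested. Its size also rests on the length used. By all exons, *Prkar1a* had 43.0 CPM per kb in WT cells with Veh, *Prkaca* 72.2 and *Prkacb* 12.4.

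**Figure D3:**
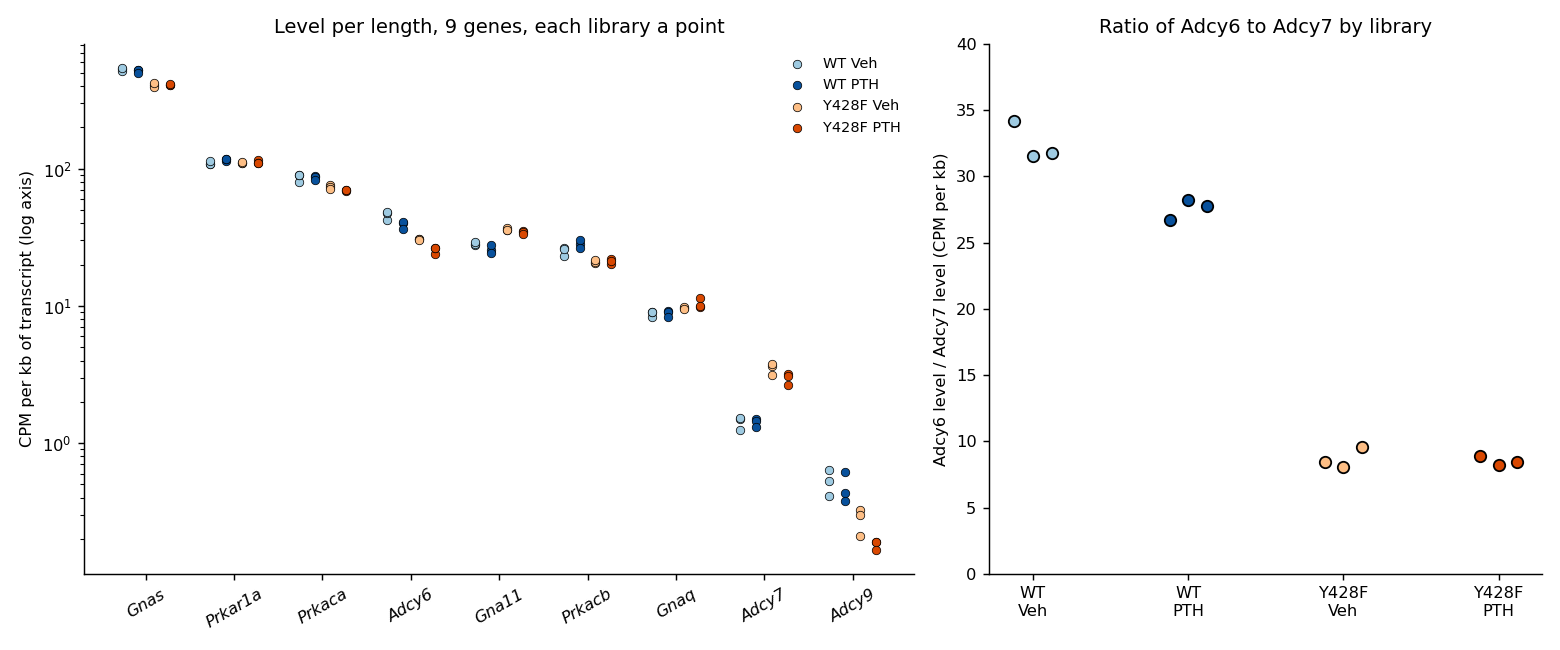
Left, level per kb of the canonical transcript (log axis) of 9 of the genes in each of the 12 libraries; *Pth1r* is left out because 1 library had 0 counts. Right, the ratio of *Adcy6* to *Adcy7* by library on a linear axis, between 26.7 and 34.2 in WT cells and between 8.07 and 9.60 in Y428F cells.

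Per length, the levels in WT cells with Veh spanned 4 orders of magnitude. From high to low, *Gnas* had 529 ± 11.8 CPM per kb, *Prkar1a* 109.8 ± 2.67, *Prkaca* 86.7 ± 5.57, *Adcy6* 46.1 ± 3.18, *Gna11* 28.6 ± 0.764 and *Prkacb* 25.2 ± 1.83 (SD, n = 3). *Gnaq* had 8.77 ± 0.384, *Adcy7* 1.42 ± 0.158, *Adcy9* 0.526 ± 0.109 and *Pth1r* 0.0515 ± 0.0587. Libraries of neighbouring genes did not overlap in this group. With PTH, *Prkacb* (28.3 ± 1.86) and *Gna11* (25.9 ± 1.67) overlapped, and in Y428F cells *Gna11* (36.2 ± 0.550 with Veh) stood above *Adcy6* (30.5 ± 0.310). When all exons of a gene were counted as its length, *Prkaca* took the second place and *Prkar1a* the third, and the other 8 genes kept theirs.

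None of the 10 genes differed between the lines in its response to PTH by edgeR's test (adjusted p = 0.773 to 0.984), and none by DESeq2. Over all genes tested, 0.413% passed edgeR's test. At an unadjusted p under 0.05 the count was also 0 of 10, beside 1247 of the 17691 genes tested. Genes with no overlap between PTH and Veh libraries were 4 of the 10 in WT cells (*Prkacb* and *Prkar1a* higher, *Gna11* and *Adcy6* lower) and 4 in Y428F cells (*Gna11*, *Adcy6*, *Adcy9* and *Prkaca*, all lower). Of all genes, 29% were free of overlap in WT cells (14.4% higher and 14.6% lower) and 30.8% in Y428F cells (15.5% and 15.4%). Between the lines, the libraries of 8 of the 10 did not overlap in either treatment (3 higher and 5 lower in Y428F cells). For all genes the share was 53.8% with Veh (27.5% higher and 26.3% lower) and 51.9% with PTH (25.6% higher and 26.3% lower).

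Whole chromosomes differed between the lines, so the differences of the 10 genes were set beside their neighbours. The median log2 difference of genes with at least 4 CPM was 0.25 on chromosome 10 (*Gna11*), 0.20 on chromosome 15 (*Adcy6*), 0.18 on chromosome 11 (*Prkar1a*) and 0.12 on chromosome 19 (*Gnaq*) with Veh. It was -0.17 on chromosome 3 (*Prkacb*), -0.13 on chromosome 8 (*Adcy7* and *Prkaca*), -0.24 on chromosome 9 (*Pth1r*), -0.057 on chromosome 2 (*Gnas*) and 0.068 on chromosome 16 (*Adcy9*). *Adcy6* was thus lower on a chromosome whose genes were higher in the median, and *Adcy7* higher on one whose genes were lower.

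With each chromosome's median taken out, *Gnas*, *Adcy6*, *Adcy7* and *Adcy9* kept their calls in both treatments. With Veh, the calls of *Gna11* (0.087, adjusted p = 0.228), *Prkaca* (-0.11, adjusted p = 0.123) and *Prkacb* (-0.089, adjusted p = 0.285) were lost. *Prkar1a*, whose own difference was 0.0091, was called lower relative to its chromosome's median (-0.17, adjusted p = 0.00779). With PTH, the calls of *Gnaq* (0.10, adjusted p = 0.222) and *Gna11* (0.14, adjusted p = 0.0504) were lost. *Prkar1a* was again called lower relative to its chromosome's median (-0.24, adjusted p = 0.000514). This left 5 of the 10 genes called with Veh and 7 with PTH, beside 7680 and 7774 of the 17691 genes tested. Copy number was not measured here.

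Cell type markers also moved between the lines. The summed level of the 11 stromal markers was 27398 CPM in WT cells with Veh and 28022 with PTH, and 18872 and 17259 CPM in Y428F cells. The 4 endothelial markers summed to 0.882 and 0.598 CPM in WT cells and to 8.30 and 6.13 CPM in Y428F cells, nearly all of it *Cdh5*. The 4 epithelial markers summed to 0.624, 0.512, 3.67 and 4.41 CPM in the same order of groups, led by *Krt8* with *Epcam* at 0, and the 5 haematopoietic markers to 1.67, 1.48, 3.56 and 4.33 CPM, led by *Ptprc*. Of the 3 osteocyte markers 2 were detected, led by *Phex*, and they summed to 0.814 to 3.33 CPM. The 5 osteoblast markers summed to 73.4 to 90.6 CPM and the 4 adipocyte markers, of which 2 were detected, to 330.3 to 396 CPM in the group means. With PTH in WT cells, *Pdgfra* was 1.51-fold lower (adjusted p = 0.00146). *Vim* was 1.21-fold higher (adjusted p = 0.0269) and *Phex* 2.22-fold higher (adjusted p = 0.0371), and no other tested marker was called there. The part of these markers in the line differences or in the responses to PTH was not tested.

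The rest of the pathway was followed in 87 genes in 8 lists: receptor partners and ligands, other Gα subunits, Gβγ subunits, other cyclases, other PKA regulatory subunits and inhibitors, PKA anchoring proteins (AKAPs), other cAMP effectors and the phospholipase C branch. In WT cells 59 were tested, of which PTH called 6 higher and 2 lower. In Y428F cells 71 were tested, with 4 higher and 2 lower. Of the 8 genes called in WT cells 6 were also called in Y428F cells, which were all 6 of those called there. The same overlap over all genes is not given here, and the responses came from fits on 6 and 12 libraries, so this count is a description only. The shares of all genes called were 6.88% higher and 4.91% lower in WT cells, and 6.61% and 5.78% in Y428F cells. Scaling by library totals alone, which moved the median of all genes by less than 0.1 on the log2 scale, turned this balance, with 38.0% of all calls higher in place of 58.4% in WT cells and 38.1% in place of 53.4% in Y428F cells. The median log2 fold change of the pathway genes was 0.0025 in WT cells and -0.059 in Y428F cells.

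*Gnai3*, which encodes an α subunit that inhibits cyclases, had 162, 164 and 154 CPM in WT cells with Veh and 198, 198 and 205 CPM with PTH. It rose 1.26-fold in WT cells (log2 0.33, SE 0.058, adjusted p = 0.00249) and 1.22-fold in Y428F cells (adjusted p = 0.000564). *Gng12*, a Gγ subunit gene, rose 1.21-fold (adjusted p = 0.0103) and 1.14-fold (adjusted p = 0.0328). No gene of the receptor, cyclase or phospholipase C lists passed the test with PTH in either line.

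*Prkar2a*, the type II α regulatory subunit gene of PKA, had 87.8, 90.3 and 98.95 CPM in WT cells with Veh and 122, 129 and 109 CPM with PTH. It rose 1.31-fold (log2 0.38, SE 0.072, adjusted p = 0.00362). In Y428F cells its response was 0.13 (adjusted p = 0.244), and the difference of the responses did not pass the test (adjusted p = 0.579). It was the only called gene of its list of 6.

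The AKAPs, scaffolds that hold PKA at particular sites in the cell, included the most genes called with PTH. In WT cells 3 of 13 tested were higher and 1 lower, beside 6.88% and 4.91% of all genes. In Y428F cells 2 were higher and 1 lower, beside 6.61% and 5.78%. Only the Gβγ list had more genes tested, so the count of calls also depends on the size of the list. *Akap1*, which anchors PKA at mitochondria, rose 1.27-fold (adjusted p = 0.00557) and 1.17-fold (adjusted p = 0.0182). *Pakap* rose 1.40-fold (adjusted p = 0.0026) and 1.27-fold (adjusted p = 0.00669), but 3 overlapping gene entries carry this symbol and the counting could split their reads, so the values of the most abundant entry are uncertain. *Akap8l*, a nuclear anchoring protein gene, had 68.3, 69.1 and 64.1 CPM in WT cells with Veh and 48.6, 49.8 and 44.8 CPM with PTH. It fell 1.40-fold in WT cells (adjusted p = 0.000678) and 1.20-fold in Y428F cells (adjusted p = 0.0197). The remaining call was *Akap12* in WT cells (1.18-fold higher, adjusted p = 0.0226), named after its values were seen.

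*Rapgef3*, which encodes EPAC1, an exchange factor for Rap that binds cAMP independently of PKA, fell the most among the pathway genes called with PTH. Its levels were 27.6, 31.0 and 28.6 CPM in WT cells with Veh and 19.5, 19.2 and 20.1 CPM with PTH, and 17.2, 17.3 and 15.02 CPM with Veh and 11.1, 11.5 and 12.1 CPM with PTH in Y428F cells. It fell 1.48-fold in WT cells (log2 -0.56, SE 0.079, adjusted p = 0.000495) and 1.43-fold in Y428F cells (log2 -0.51, SE 0.092, adjusted p = 0.000734). The 4 groups did not overlap, and their order was the one seen for *Adcy6*.

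**Figure D4:**
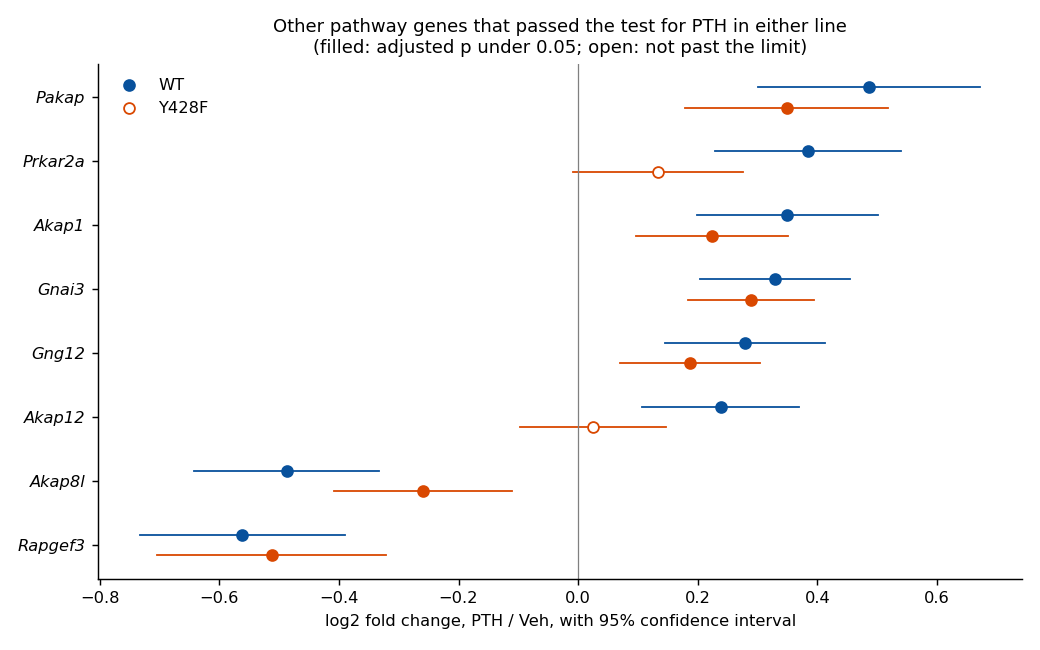
Log2 fold change with PTH, with 95% confidence intervals, of the 8 genes of the pathway lists that passed the test in either line; filled points passed an adjusted p of 0.05. *Rapgef3* and *Akap8l* lie below 0 in both lines, the other 6 lie above 0, and *Prkar2a* and *Akap12* are open in Y428F cells.

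Between the lines, 31 of the 71 tested pathway genes passed the test with Veh (14 higher and 17 lower in Y428F cells) and 34 with PTH (12 higher and 22 lower). All genes tested gave 22.4% higher and 22.7% lower with Veh, and 22.8% and 23% with PTH. The line differences of the pathway genes are given without their chromosomes' medians taken out. Chromosome 9, which holds *Gnai2*, had a median of -0.24 with Veh. The phospholipase C branch had 1 gene higher and 5 lower of 11 tested with Veh, and 0 higher and 6 lower with PTH. *Plcb4* was 1.55-fold lower (adjusted p = 1.17e-05) and *Plcb1* 1.42-fold lower (adjusted p = 1.6e-05) with Veh, which encode phospholipases that Gαq and Gα11 stimulate. *Prkce*, a calcium-independent PKC gene, was 1.31-fold lower (adjusted p = 0.00311), and *Itpr1*, an IP3 receptor gene, was 1.31-fold lower with PTH (adjusted p = 0.00081).

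Other Gα genes had 1 higher and 4 lower of 10 tested with Veh, and 1 higher and 5 lower with PTH. *Gnai2* was 1.32-fold lower with Veh (adjusted p = 8.78e-07), *Gnao1* 1.41-fold lower (adjusted p = 2.5e-05) and *Gna12* 1.37-fold lower (adjusted p = 1.83e-06), while *Gnaz* was called with PTH (2.29-fold lower, adjusted p = 0.00361). *Gng2* differed the most among the Gβγ genes with at least 2 CPM. It had 1.77 to 3.60 CPM in the 6 WT libraries and 16.4 to 20.4 CPM in the 6 Y428F libraries, a 6.44-fold difference with Veh (log2 2.69, SE 0.14, adjusted p = 2.89e-12) and a 6.64-fold difference with PTH. *Gnb4* and *Gnb5* were 2.33-fold (adjusted p = 6.61e-07) and 1.84-fold (adjusted p = 5.52e-08) lower with Veh. The Gβγ list as a whole had 3 higher and 2 lower of 16 tested with Veh, and 2 higher and 3 lower with PTH.

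Among the receptor partners, the scaffold genes *Nherf1* and *Nherf2*, whose proteins bind the tail of PTH1R, moved apart. *Nherf1* was 1.44-fold higher in Y428F cells with Veh (log2 0.52, SE 0.050, adjusted p = 2.9e-08), and *Nherf2* was 2.41-fold lower (log2 -1.27, SE 0.12, adjusted p = 2.74e-08). With PTH these differences were 1.48-fold (adjusted p = 1.13e-08) and 2.50-fold (adjusted p = 2.07e-08). The receptor kinase gene *Grk6* was 1.22-fold higher with Veh (adjusted p = 0.000447). The list had 3 higher and 1 lower of 8 tested with Veh, and 2 higher and 1 lower with PTH.

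The PKA inhibitor genes *Pkia* and *Pkig* also differed in opposite directions with Veh, 1.28-fold higher (adjusted p = 0.00109) and 1.41-fold lower (adjusted p = 3.58e-05) in Y428F cells. Their list had 2 higher and 1 lower of 5 tested in each treatment. *Akap6* was 3.78-fold higher (log2 1.92, SE 0.25, adjusted p = 1.74e-06), and *Akap8l*, *Pakap* and *Rapgef3* were 1.81-fold (adjusted p = 1.82e-09), 1.48-fold (adjusted p = 7.43e-06) and 1.76-fold (adjusted p = 8.96e-08) lower with Veh. *Popdc3*, which encodes a cAMP-binding Popeye domain protein, had 0 to 3 counts in each WT library and 61 to 97 in each Y428F library. AKAPs had 2 higher and 3 lower of 13 tested with Veh and 3 higher and 4 lower with PTH, other cAMP effectors had 1 higher and 1 lower of 4 in each treatment, and other cyclases had 1 higher of 4 with Veh and 1 in each direction with PTH, called genes that were all under 1 CPM.

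Across the 12 libraries, the genes most alike in pattern to each member were found by Pearson's correlation of log2 CPM over the 11217 genes that averaged 2 CPM or more. The libraries share the split between the lines, so high values are a description of that split, and they carry no test. *Adcy6* was most like *Notch3* (r = 0.995) and *Plppr2* (0.995), *Adcy7* like *Lama5* (0.994) and *Mtmr4* (0.994), and *Adcy9* like *Pacs1* (0.984) and *Elfn1* (0.980). *Gnas* was most like *Timp2* (0.993) and *Man2b2* (0.992), *Gna11* like *Zmym2* (0.994) and *Nherf1* (0.986), and *Gnaq* like *Med13* (0.950) and *Cgnl1* (0.946). *Prkaca* was most like *Clip2* (0.989) and *Vps35l* (0.988), and *Prkacb* like *Cdc42ep4* (0.989) and *Akap12* (0.984). *Prkar1a*, which did not differ beyond its spread between the lines, had lower values, with *Xbp1* (0.823) and *Zfp954* (0.806). *Pth1r* was too low for this measure. Among the members themselves, *Adcy6* and *Prkaca* were the most alike (0.954), and *Gnas* and *Adcy7* the most opposed (-0.966).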

How the data were processed

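The authors mapped reads with STAR 2.7.10b to GRCm39, using GENCODE's basic gene set, and deposited RSEM expected counts per gene, not scaled for library size or gene length. Libraries were grouped by title. Here expected counts were rounded, and edgeR 4.0.16 in R 4.3.3 was used (TMM normalization, genes reaching 10 counts in total, quasi-likelihood test, Benjamini-Hochberg adjustment over all genes tested), and a gene was called at an adjusted p under 0.05. PTH in WT cells was fitted on the 6 WT libraries (15583 genes), and the other 4 comparisons on all 12 (17691 genes). Depth was 17127897 to 19057319 counts per library, so counting error was largest for genes with few counts, such as *Pth1r*.

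Gene positions and lengths came from GRCm39 with GENCODE vM39, which held 56236 of the 56980 identifiers. Upstream sequences of 3 members were read from the same genome, and 1 other is not reported here. Named genes were the 10 members, up to 3 called genes per pathway list and comparison with at least 2 CPM in either group, ranked by log2 fold change, and the 2 genes most correlated with each member. Outside this rule, the markers, *Myl3*, *Akap12*, *Pth2r*, *Pth*, *Pthlh*, *Adcy2*, *Adcy3* and *Adcy8* were also named. The members, lists and markers were chosen with earlier results of these data known. Scripts were tested on simulated data. Alternatives were the Wald test of DESeq2 1.42.0, other scalings and filters, a replicate block, a limit of 0.01, other samples in the fit, each chromosome's median as an offset, exon length and each library left out in turn.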

Additional observations from a re-analysis of the deposited data

How the results depend on the processing

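Of the 10 genes, the number called with PTH in WT cells was 1 and became 0 with a limit of 0.01, 0 with the replicate block and 0 to 1 with each library left out, where *Adcy6* ranged from -0.27 to -0.18 on the log2 scale. Calls among pathway genes with PTH in Y428F cells went from 6 to 3 with a limit of 0.01. With each chromosome's median as an offset, *Prkar1a* moved from 0.0091, which was not called, to -0.17 between the lines with Veh. The second value is relative to its chromosome's median. No data on copy number bear on the cause, which was not tested. *Gnaq* with Veh was called with library totals only (0.19, adjusted p = 0.0146). No other member gained or lost its call under the alternatives tried, apart from those given beside *Pth1r*, *Gnaq*, *Adcy6* and the chromosome medians. Replicate numbers did not pair the libraries (mean correlation of same-numbered libraries 0.0019, range -0.031 to 0.037 over 18 pairs), and beyond *Adcy6* in WT cells (adjusted p = 0.0860) the block changed no member's call.

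Counts over all genes moved more. The difference in response gave 73 genes, 123 with DESeq2, 216 with no filter, 22 with a limit of 0.01 and 24 to 89 with each library left out. With PTH, WT cells gave 1837 genes, 841 with a limit of 0.01 and 905 to 2211 with each library left out, and Y428F cells 2192, 1135 and 1435 to 1817. With library totals only, the share of higher calls with PTH was 38.0% in WT cells in place of 58.4% and 38.1% in Y428F cells in place of 53.4%. Depth limited *Pth1r* the most: 3 counts in 1 library of its group's mean size, taken as the floor per library, are 0.160 to 0.179 CPM.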
